A study of Mus musculus with 15 samples.

Results

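The collagen genes were followed in mouse embryonic fibroblasts (MEFs), primary connective tissue cells grown from embryos, during adipogenic differentiation. They were chosen as protein-coding genes whose symbol is Col, a number, the letter a and a number, with at least 10 counts in at least 3 samples. This rule uses the counts of a gene over all samples and no comparison between conditions. Of 46603 genes in the count tables, 44 carried such a symbol and 34 of them were kept.

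RNA-Seq counts came from 15 samples of wild-type BALB/c MEFs, from 10.5 day old embryos according to the labels, in 5 conditions with 3 replicates each, numbered 1, 3 and 4. MEFD0 was taken before treatment, in growth medium (DMEM with 10% FBS). MEFD3plu had been in differentiation medium for 3 days. This was growth medium with 0.5 mM IBMX (3-isobutyl-1-methylxanthine, which blocks phosphodiesterases so that cAMP accumulates), insulin at 10 µg/mL, dexamethasone (a glucocorticoid) at 1 µM and rosiglitazone (a ligand of Pparg) at 10 µM. MEFD5plu had the same 3 days of treatment and then growth medium until day 5. MEFD3min and MEFD5min stayed in growth medium for 3 and 5 days. Total counts lay between 24030558 and 37281126 per sample. The labels do not say whether the replicates came from separate embryos or cultures, so p-values measure the spread between these samples, which may be technical. MEFs are a mixed primary culture, and in bulk RNA of such cells fewer cells of a type and less RNA per cell cannot be told apart.

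Collagens are secreted proteins whose chains wind in groups of 3 into a triple helix. Fibrillar collagens pack into the banded fibrils that carry tension in connective tissue. Type IV collagen forms the sheet of basement membranes, type VI collagen forms beaded filaments around cells, and FACIT (fibril-associated collagens with interrupted triple helices) sit on fibril surfaces. Fibroblasts are the main source of fibrillar collagens, and a mature fat cell is wrapped in its own basement membrane with type IV and type VI collagen. Chains are hydroxylated and folded in the endoplasmic reticulum, trimmed at their ends outside the cell and cross-linked by lysyl oxidases.

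The 34 genes were 10 fibrillar genes, 4 of type IV, 6 of type VI, 5 FACIT genes, 3 transmembrane genes, the short-chain genes Col8a1 and Col10a1, the multiplexins Col15a1 and Col18a1 (collagens with many breaks in the helix), the anchoring fibril gene Col7a1, and Col28a1. At the edge of the rule, Col4a3 had 3 samples with at least 10 counts and a highest count of 15. Those were the 3 MEFD3plu samples, so its higher level there follows from the rule, and its part in any count of genes called against MEFD3plu below supports nothing. Col10a1 had 6 such samples, and Col24a1 and Col23a1 had 7 each. Just outside it, Col4a4 had 2 such samples with a highest count of 29, and Col2a1, the main fibrillar chain of cartilage, had 1 with a highest count of 20. The other 8 left out were Col26a1, Col19a1, Col9a1, Col9a2, Col4a6, Col8a2, Col13a1 and Col22a1. All 34 passed the filter on low counts that preceded the tests. Col9a3 shared the most exon sequence with an antisense gene (6.07%, with Tcfl5), followed by Col4a3 (5.65%). Col9a3 also shared the most 50-base words with other genes (4.88%), so its reads may be split or borrowed to that extent.

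Some of the genes are close neighbours in GRCm38. Col4a1 (chr8:11198423-11312826) and Col4a2 (chr8:11312805-11449287) lie head to head and overlap by 22 bp. Col3a1 (chr1:45311538-45349706) and Col5a2 (chr1:45374321-45503282) are 24614 bp apart. Col6a6, Col6a5 and Col6a4 follow each other on chromosome 9 with gaps of 27917 and 28810 bp.

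RefSeq promoter windows (GRCm38.p6) were found for 28 of the 34 genes, 30 windows in all. The 150 bases before the start are printed for 3 genes on the plus strand, at chr1:45311388-45311537, chr3:114030390-114030539 and chr4:47207862-47208011, none of them in an annotated exon. Col3a1 was the most abundant collagen gene over the 15 samples, Col11a1 the fibrillar gene with the largest day 3 increase, and Col15a1 the collagen gene with the largest increase at both days. Capitals mark 3 common promoter elements on either strand, the CCAAT box, the GC box read as GGGCGG, and the TATA element read as TATAA.
Col3a1: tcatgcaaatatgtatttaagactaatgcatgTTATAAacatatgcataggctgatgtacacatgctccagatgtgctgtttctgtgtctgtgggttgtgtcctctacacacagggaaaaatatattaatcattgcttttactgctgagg
Col11a1: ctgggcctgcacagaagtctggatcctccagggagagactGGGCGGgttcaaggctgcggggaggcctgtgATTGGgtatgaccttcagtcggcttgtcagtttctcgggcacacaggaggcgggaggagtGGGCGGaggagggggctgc
Col15a1: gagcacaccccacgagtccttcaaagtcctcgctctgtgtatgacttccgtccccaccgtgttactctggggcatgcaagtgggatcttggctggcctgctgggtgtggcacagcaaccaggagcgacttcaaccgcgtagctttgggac
The Col11a1 stretch held the GC box at 2 places and the CCAAT box at 1. The Col3a1 stretch held the TATA element, read on both strands with overlap, and the Col15a1 stretch held none of these letters. In the 250 bases before the start, the GC box was present in 19 of the 30 collagen windows (63.3%) and in 32.7% of all 32851 windows. The CCAAT box was present in 12 (40.0%, against 33.8% of all) and the TATA element in 4 (13.3%, against 22.8%). These shares describe letters alone.

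Collagen transcripts were scarce at day 0 and abundant at day 3, with and without treatment. Values are given as CPM, counts scaled to library size with edgeR's TMM factors. Summed over the 34 genes, CPM were 4837, 5586 and 3912 in MEFD0, 21757, 32943 and 23459.5 in MEFD3min and 24052, 26989.9 and 25420.3 in MEFD3plu. At day 5 the sums were 11830.5, 9157 and 9659.8 in MEFD5min and 13769, 10672 and 12334 in MEFD5plu. The samples of MEFD0 lay below all others and those of day 5 in between, and treated and untreated samples overlapped at each day. MEFD3min_3 had the highest sum of all. As a mean share of all counts (n = 3), collagen genes held 0.507% in MEFD0, 2.54% and 2.52% at day 3 without and with treatment, and 1.07% and 1.15% at day 5. The mean was highest in MEFD3plu for 17 of the 34 genes, in MEFD3min for 10, in MEFD5plu for 5, in MEFD0 for Col7a1 and in MEFD5min for Col8a1. It was lowest in MEFD0 for 26, in MEFD3plu for 3, in MEFD3min for 2, in MEFD5min for 2 and in MEFD5plu for 1. Such counts were not made over all genes, and the 17 include Col4a3, whose place there follows from the rule.

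**Figure D1:**
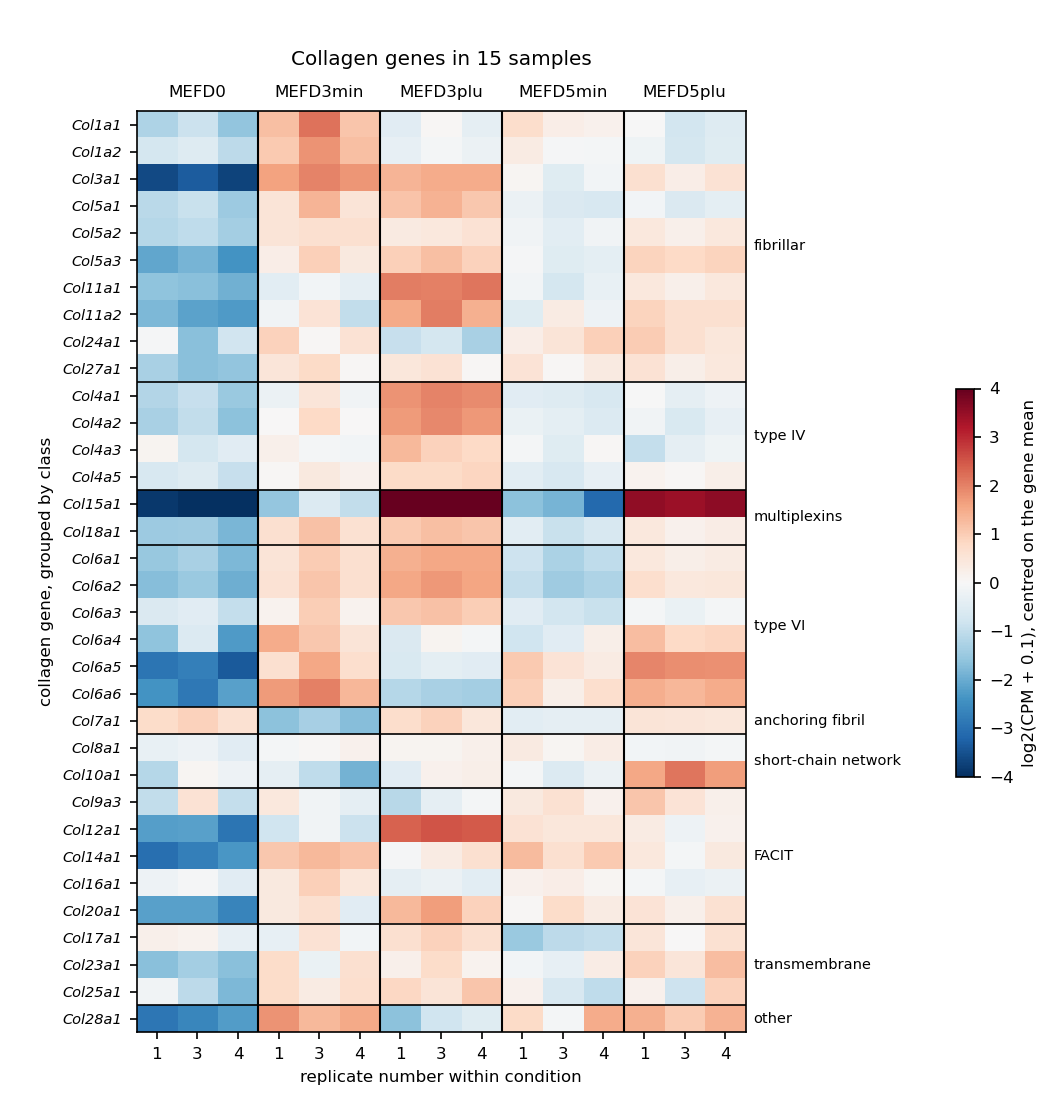
Level of each of the 34 collagen genes (rows, grouped by class) in each of the 15 samples (columns, by condition and replicate number), on a log2 CPM scale with a small pseudocount, minus the gene's mean over all samples. MEFD0 is the lowest condition for 26 genes, and Col15a1 is highest in the 6 treated samples.

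The make-up of these transcripts differed between treated and untreated samples. Fibrillar genes held 76.5% ± 0.608 (SD, n = 3) of the collagen counts in MEFD3min and 48.2% ± 0.689 in MEFD3plu. Type IV genes held 7.42% ± 0.492 in MEFD3min and 24.2% ± 0.424 in MEFD3plu. Type VI genes held 13.3% ± 0.319 and 22.8% ± 0.466. In these 3 classes the day 3 groups did not overlap. By day 5 the type IV shares were 12.3% ± 1.33 in MEFD5min and 12.1% ± 0.0154 in MEFD5plu and overlapped. Type VI genes held 11.4% ± 0.128 and 21.3% ± 1.13 at day 5, and fibrillar genes 69.5% ± 1.75 and 61.5% ± 1.36, without overlap. In MEFD0 the shares were 55.5% ± 0.357 fibrillar, 15.9% ± 0.424 type IV and 20.5% ± 0.374 type VI. FACIT genes held 1.14% ± 0.042 in MEFD3min and 2.9% ± 0.0265 in MEFD3plu. Shares are of counts, to which a longer transcript gives more, and carry no test.

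**Figure D2:**
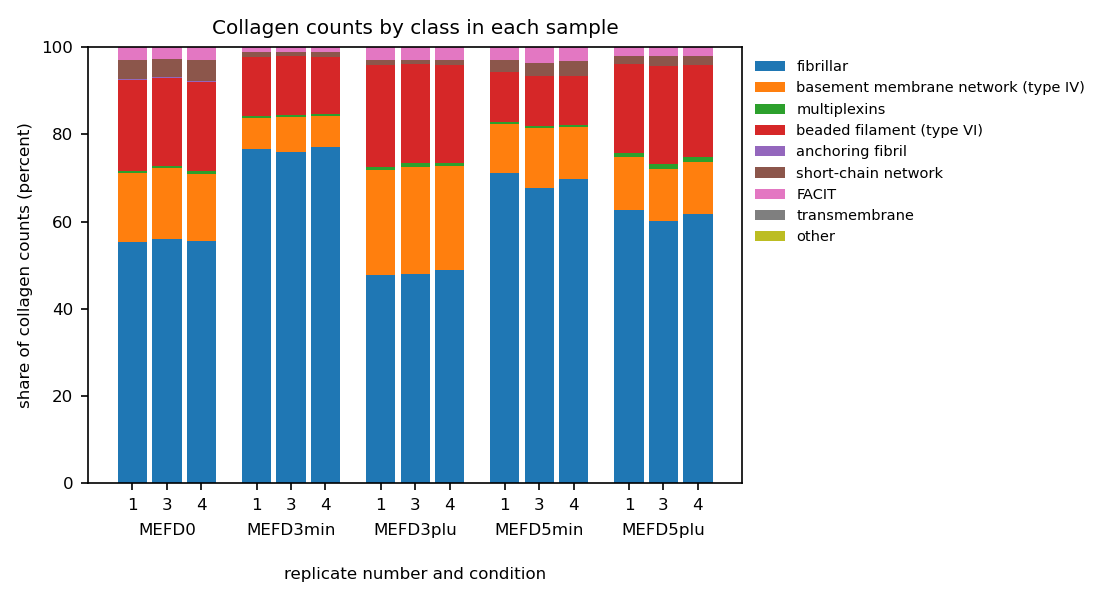
Share of the collagen counts held by each class of collagen genes (stacked bars, percent) in each sample, by condition and replicate number. The type IV part is widest in the 3 MEFD3plu samples (mean 24.2%) and narrowest in the 3 MEFD3min samples (mean 7.42%).

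To ask which collagen genes differed with treatment, MEFD3plu was compared with MEFD3min and MEFD5plu with MEFD5min. Both came from 1 edgeR quasi-likelihood fit over 15997 genes. A gene was called at an adjusted p (Benjamini-Hochberg) under 0.05, and differences are log2 fold changes ± SE (n = 3 per condition). At day 3, 15 of the 34 genes rose and 9 fell, beside 28.0% of all genes that rose and 28.0% that fell. Col4a3 is 1 of those 15 and of the 8 below with a more positive effect at day 3. The median log2 fold change of the 34 was 0.32, against -0.00057 over all genes. At day 5, 18 rose and 5 fell, beside 26.3% and 24.2% of all genes, with a median of 0.58 against 0.010. Groups did not overlap for 24 of the 34 genes at day 3 and for 25 at day 5, beside 56.8% and 62.1% of all genes. The treatment effect itself differed between the days for 23 genes, tested as an interaction (day 3 minus day 5). It was more positive at day 3 for 8 and at day 5 for 15, beside 22.6% and 25.8% of all genes. Scaled by total counts alone, this split was 9 and 9, beside 7956 of all 15997 genes called in either direction.

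Marker genes of fibroblasts and fat cells moved with these comparisons. The fibroblast markers Pdgfra, Pdgfrb, Vim, Thy1 and Fn1 summed to 7089 to 11056 CPM in MEFD3min and 2644 to 2869.8 in MEFD3plu, and 4 of the 5 fell at day 3 while Pdgfrb was called higher (adjusted p = 0.0498), a call that was lost with DESeq2 (0.0568) and without MEFD3min_1 (0.205), MEFD3min_4 (0.178), MEFD3plu_1 (0.0991), MEFD3plu_3 (0.128) or MEFD3plu_4 (0.0532). At day 5 they summed to 6946 to 8022 in MEFD5min and 5127 to 5724 in MEFD5plu, where Fn1 fell (-1.43 ± 0.24, adjusted p = 9.37e-05), Pdgfra rose (0.27 ± 0.083, adjusted p = 0.0122) and 3 were not called. The call of Pdgfra was lost without MEFD5min_3 (0.058), MEFD5min_4 (0.0676) or MEFD5plu_1 (0.0537) and with scaling by total counts alone (0.323). The fat cell markers Adipoq, Plin1, Cidec, Fabp4, Pparg and Lep summed to 3664 to 4820.0 CPM in MEFD3plu and 6084 to 7293 in MEFD5plu, against 26.2 to 31.8 in MEFD0, 17.3 to 20.2 in MEFD3min and 16.3 to 17.7 in MEFD5min. Contractile markers (Acta2, Tagln, Cnn1 and Myh11), which mark the myofibroblast state, summed to 119 to 171 in MEFD3min and 18.2 to 24.2 in MEFD3plu, and to 719 to 819.6 in MEFD5min and 192 to 201 in MEFD5plu. Acta2 and Tagln held nearly all of these sums and fell at both days. Myh11 was called higher at both days, at 0.0673 to 0.157 CPM in MEFD3min, 0.254 to 0.658 in MEFD3plu, 0.0559 to 0.108 in MEFD5min and 1.01 to 1.48 in MEFD5plu (adjusted p = 0.00709 and 1.85e-05). The part of these changes in the collagen results was not tested.

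**Figure D3:**
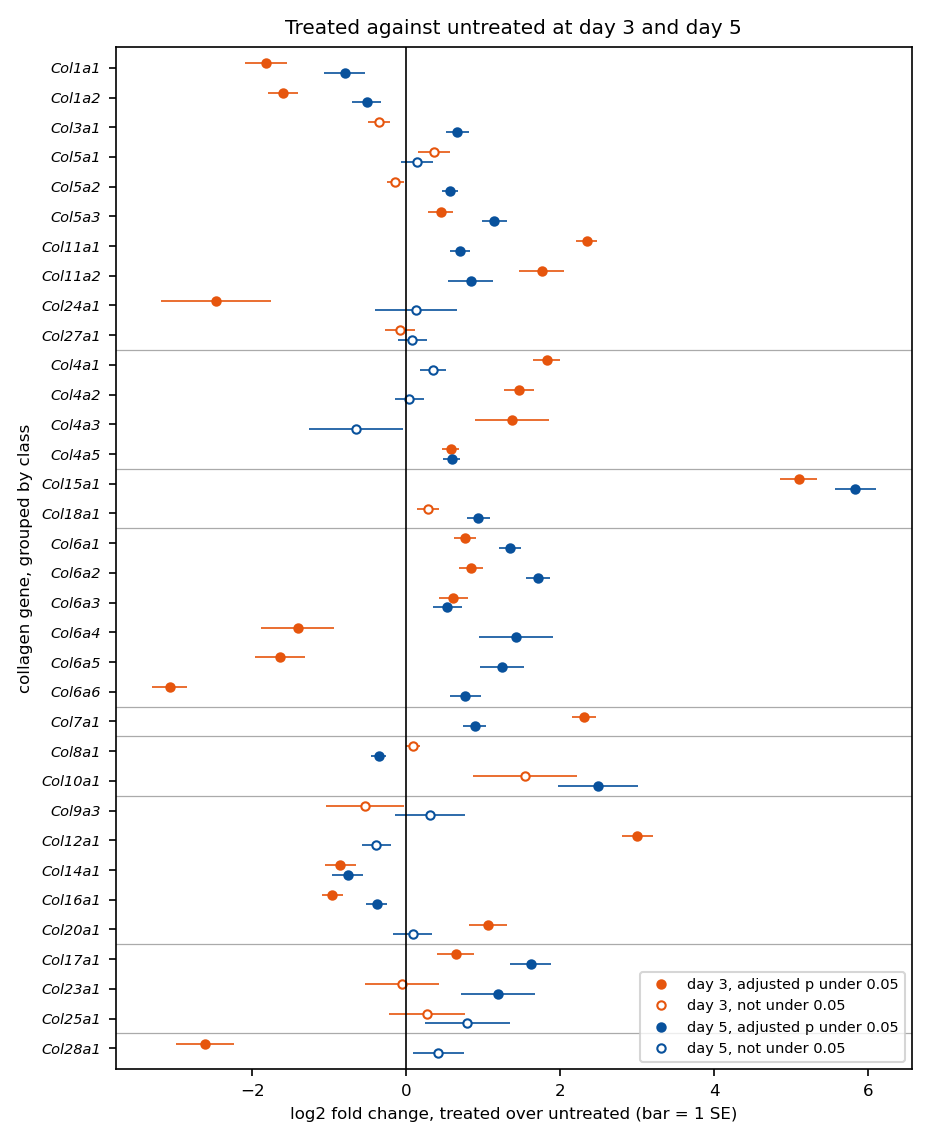
Log2 fold change of treated over untreated samples for each of the 34 collagen genes, grouped by class, at day 3 (orange) and day 5 (blue); bars are 1 SE from the edgeR fit and filled points passed the adjusted p threshold. Type VI genes split at day 3, with 3 higher and 3 lower, and all 6 lie above 0 at day 5.

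Fibrillar genes moved in both directions at day 3, where 3 of 10 rose, 3 fell and 4 did not pass the test. These counts lie near the shares of all genes, of which 28.0% rose and 28.0% fell. At day 5, 5 fibrillar genes rose and 2 fell (4 called in all without MEFD5min_1), beside 26.3% and 24.2% of all genes. Type I collagen, the principal fibril of skin, bone and tendon, fell; its chains are encoded by Col1a1 (chr11:94936224-94953042) and Col1a2 (chr6:4504814-4541544). CPM of Col1a1 were 412, 540.2 and 328 in MEFD0, 2230.4, 4414 and 2098 in MEFD3min and 1589, 1177 and 1102 in MEFD5min. With treatment, Col1a1 had 711, 1004 and 759 in MEFD3plu and 969.6, 581 and 679 in MEFD5plu. Treated samples lay below untreated ones at both days without overlap. Col1a1 fell at day 3, with a log2 fold change of -1.82 ± 0.27 (adjusted p = 2.11e-05), and at day 5, with -0.79 ± 0.27 (adjusted p = 0.0195). The days differed by -1.03 ± 0.37 (adjusted p = 0.0317). MEFD3min_3 had the highest Col1a1 of its condition, 2.1 times the lowest, and without it the day 3 value was -1.39.

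Col1a2 followed Col1a1. CPM of Col1a2 were 1453, 1670.5 and 1156 in MEFD0, 4935, 8190.3 and 5526 in MEFD3min and 3010.4, 2288 and 2234 in MEFD5min. With treatment, Col1a2 had 1901, 2238 and 2009 in MEFD3plu and 2126, 1466 and 1700.1 in MEFD5plu. Again the treated samples were the lower ones at both days without overlap. Its log2 fold changes were -1.60 ± 0.19 (adjusted p = 1.76e-06) at day 3 and -0.51 ± 0.19 (adjusted p = 0.0325) at day 5, and the days differed by -1.09 ± 0.27 (adjusted p = 0.00274). With each sample left out, the day 5 values stayed negative, at -1.03 to -0.62 for Col1a1 and -0.67 to -0.36 for Col1a2. Both day 5 calls were lost without some single samples. That of Col1a1 was lost without MEFD5min_1 (0.0942), MEFD5plu_3 (0.092) or MEFD5plu_4 (0.0682) and that of Col1a2 without MEFD5min_1 (0.162), MEFD5plu_3 (0.144) or MEFD5plu_4 (0.0894), with the adjusted p in brackets.

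Type III collagen, the homotrimer of Col3a1 that is plentiful in skin and vessel walls, differed from type I. CPM of Col3a1 were 207, 247 and 192 in MEFD0, 7638, 9862 and 8542 in MEFD3min and 2616, 1769 and 2336 in MEFD5min. With treatment, Col3a1 had 6370.5, 6953 and 7066 in MEFD3plu and 3923, 3034 and 3703 in MEFD5plu. MEFD0 was far below all other conditions, and treated samples were the lower ones at day 3 and the higher ones at day 5, without overlap. Per length, Col3a1 had 884 CPM per kb of exon in MEFD3min and 692 in MEFD3plu, the highest level of any collagen gene in each of these conditions. In MEFD0 it had 21.9, and Col1a2 was the highest with 115. These lengths join the exons of all annotated transcripts of a gene, so such ranks depend on that choice. The log2 fold change of Col3a1 at day 3 was -0.35 ± 0.15 (adjusted p = 0.051), just outside the threshold; with DESeq2 the adjusted p was 0.0321, and with the replicate number as a block it was 0.0434. At day 5 Col3a1 rose, with 0.67 ± 0.15 (adjusted p = 0.00126), and the days differed by -1.02 ± 0.21 (adjusted p = 6.85e-04).

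**Figure D4:**
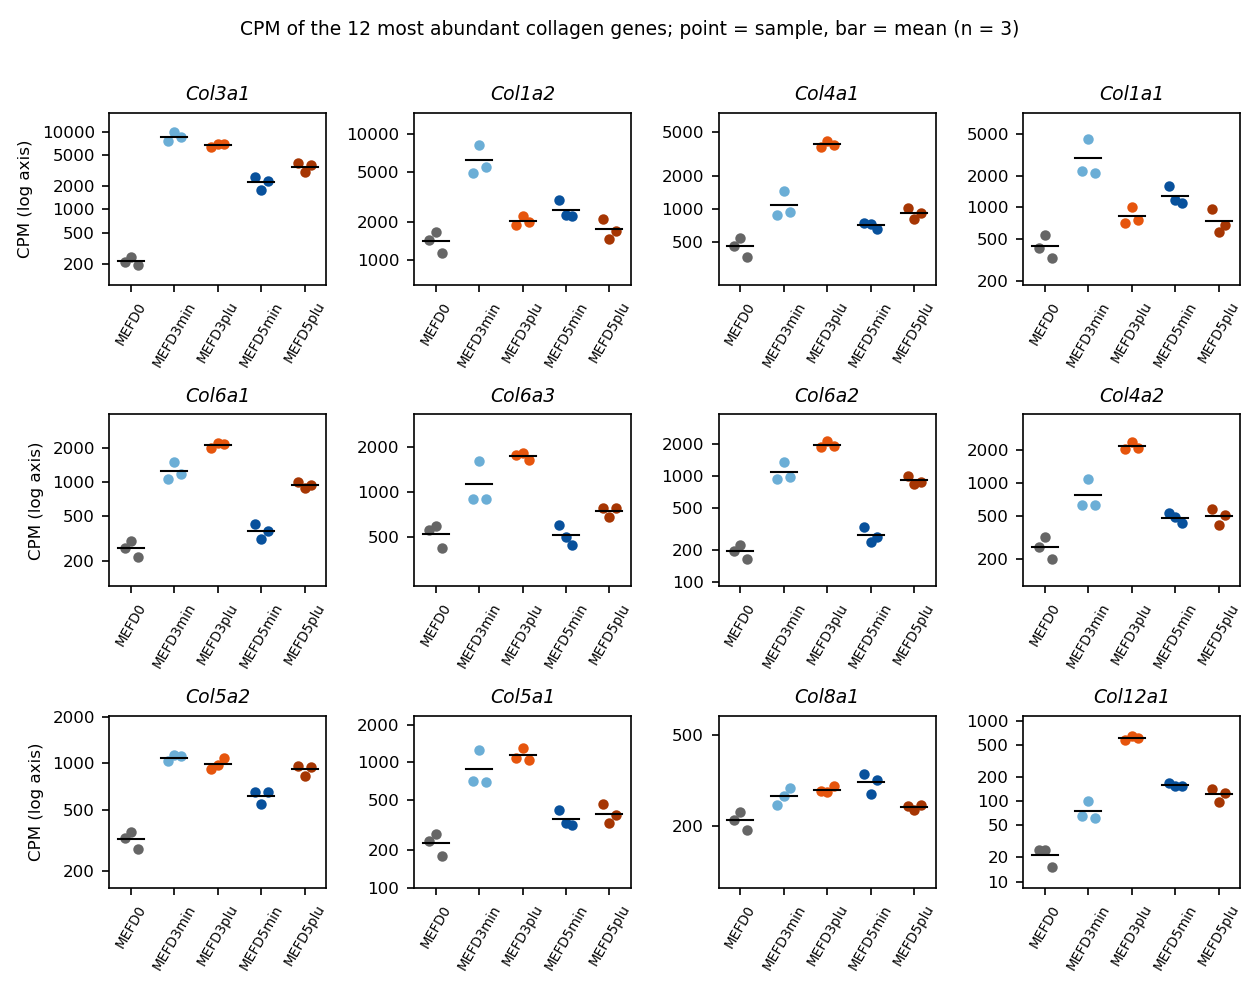
CPM (log axis, a separate range in each panel) of the 12 collagen genes with the highest mean over all samples; each point is a sample, in the order of replicates 1, 3 and 4, and each bar is the mean of 3 samples. Col1a1 and Col1a2 are highest in MEFD3min, whereas Col4a1, Col4a2, Col6a1, Col6a2 and Col12a1 are highest in MEFD3plu.

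Types V and XI are minor fibril chains that start fibrils and limit their width, type XI mostly in cartilage. CPM of Col5a1 were 234, 269 and 179 in MEFD0, 706, 1262 and 704 in MEFD3min and 418, 332 and 315 in MEFD5min. With treatment, Col5a1 had 1085, 1306 and 1044 in MEFD3plu and 464, 331 and 379 in MEFD5plu. Treated and untreated samples of Col5a1 overlapped at both days, with log2 fold changes of 0.36 ± 0.21 (adjusted p = 0.147) and 0.14 ± 0.21 (adjusted p = 0.603). Without MEFD3min_3 its day 3 value was 0.70 and passed the threshold (adjusted p = 0.00166). CPM of Col5a2 were 326, 357 and 280.2 in MEFD0, 1027, 1123 and 1107 in MEFD3min and 652, 540.4 and 648 in MEFD5min. With treatment, Col5a2 had 919, 967 and 1072 in MEFD3plu and 957, 823 and 950.2 in MEFD5plu. Col5a2 overlapped at day 3 (-0.14 ± 0.11, adjusted p = 0.282) and rose at day 5 (0.57 ± 0.11, adjusted p = 2.91e-04). Col5a3 was rarer, at 32.8 to 53.1 CPM in MEFD3min, 51.1 to 62 in MEFD3plu, 19.3 to 26.1 in MEFD5min and 47 to 50.1 in MEFD5plu. It rose at day 3 (0.45 ± 0.16, adjusted p = 0.0246), where the groups overlapped, and at day 5 (1.15 ± 0.16, adjusted p = 2.10e-05). Without MEFD3min_3 the day 3 value of Col5a3 was 0.69. The day 3 call of Col5a3 was lost without MEFD3min_1 (0.131), MEFD3min_4 (0.0803) or MEFD3plu_3 (0.105) and with the 6 day 3 samples fitted alone (0.0655).

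Col11a1 (chr3:114030540-114220718) had the largest rise of the fibrillar genes at day 3. CPM of Col11a1 were 31.2, 30.4 and 25.4 in MEFD0, 72.3, 90.3 and 75.2 in MEFD3min and 89, 58.6 and 77.7 in MEFD5min. With treatment, Col11a1 had 397, 388 and 427 in MEFD3plu and 129, 109.9 and 129 in MEFD5plu. The MEFD3plu samples stood above all others. Col11a1 rose at day 3, with 2.35 ± 0.14 (adjusted p = 1.60e-10), and at day 5, with 0.70 ± 0.13 (adjusted p = 2.69e-04), and the days differed by 1.64 ± 0.18 (adjusted p = 1.76e-06). Its partner chain Col11a2 lay at 1.95 to 5.87 CPM in MEFD3min and 10.7 to 16.7 in MEFD3plu and rose at day 3 (1.76 ± 0.29, adjusted p = 5.69e-05) and day 5 (0.84 ± 0.29, adjusted p = 0.0253). The day 5 call of Col11a2 was lost without MEFD5min_1 (0.113), MEFD5min_4 (0.0841) or MEFD5plu_1 (0.0797) and with scaling by total counts alone (0.0815). The 6 cartilage markers Sox9, Acan, Hapln1, Matn1, Matn3 and Comp summed to 22.7 to 28 CPM in MEFD3min and 19.3 to 26.7 in MEFD3plu, nearly all of it Sox9, with 2 of the 6 at 3 counts or fewer in every sample. Of the 6, 2 were tested. Comp was called higher at day 3, at 0 to 0.14 CPM in MEFD3min and 0.564 to 0.721 in MEFD3plu (adjusted p = 1.62e-04), and the other was not called. At day 5 the sums were 43.2 to 58.4 CPM in MEFD5min and 17.1 to 21.5 in MEFD5plu, with 1 marker called higher and 1 lower. The part of these markers in the type XI results was not tested.

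Among the other fibrillar genes, Col24a1, which is known from developing bone, was near the limit of detection. CPM of Col24a1 were 0.206, 0 and 0.0837 in MEFD0, 0.501, 0.225 and 0.37 in MEFD3min and 0.279, 0.35 and 0.514 in MEFD5min. With treatment, Col24a1 had 0.0682, 0.094 and 0.0282 in MEFD3plu and 0.536, 0.387 and 0.332 in MEFD5plu. MEFD3plu had at most 3 counts in every sample, so MEFD3min was at least 3.9-fold higher (edgeR adjusted p = 0.00737). At day 5 the groups overlapped, with 0.13 ± 0.54 (adjusted p = 0.867). Osteoblast markers (Runx2, Sp7, Bglap and Ibsp) summed to 17.4 to 25.7 CPM in MEFD3min and 22.6 to 28.3 in MEFD3plu, nearly all of it Runx2. Of these, 2 were tested at day 3, where Runx2 was called higher and Sp7 lower. Sp7 lay at 0.37 to 1.01 CPM in MEFD3min and 0 to 0.102 in MEFD3plu (adjusted p = 1.53e-04). The part of these markers in the Col24a1 result was not tested. Col27a1, a fibrillar chain of cartilage and other tissues, overlapped at both days, with -0.082 ± 0.19 (adjusted p = 0.742) and 0.083 ± 0.19 (adjusted p = 0.752).

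Of the type IV genes, Col4a1, Col4a2 and Col4a5 rose at day 3 and Col4a5 was called at day 5. The fourth, Col4a3, was kept only through its MEFD3plu samples, so no test of it that uses those samples supports anything. Col4a1 and Col4a2 encode the chains found in nearly every basement membrane. CPM of Col4a1 were 467, 553 and 372 in MEFD0, 882, 1462 and 946 in MEFD3min and 756, 738 and 664 in MEFD5min. With treatment, Col4a1 had 3659.8, 4165 and 3842 in MEFD3plu and 1027, 815 and 916 in MEFD5plu. CPM of Col4a2 were 259, 319.8 and 204 in MEFD0, 632, 1086 and 637 in MEFD3min and 529, 486 and 436 in MEFD5min. For both, the MEFD3plu samples lay above every other sample. With treatment, Col4a2 had 2035, 2373 and 2089.8 in MEFD3plu and 575, 413 and 506 in MEFD5plu. Col4a1 rose at day 3, with 1.83 ± 0.17 (adjusted p = 9.60e-08), and Col4a2 with 1.47 ± 0.20 (adjusted p = 6.34e-06). At day 5 the values were 0.35 ± 0.17 (adjusted p = 0.0906) for Col4a1 and 0.042 ± 0.19 (adjusted p = 0.877) for Col4a2. The effect was larger at day 3, by 1.47 ± 0.24 (adjusted p = 8.22e-05) for Col4a1 and 1.42 ± 0.27 (adjusted p = 3.97e-04) for Col4a2. Col4a1 did not overlap between the day 5 groups, and its day 5 value passed the threshold with the 6 day 5 samples fitted alone (adjusted p = 0.00739) and without a filter on low counts (adjusted p = 0.00211).

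The rarer type IV chains occur in special basement membranes such as that of the kidney glomerulus. Col4a5 lay at 62.2 to 78.9 CPM in MEFD3min, 102 to 108 in MEFD3plu, 38.8 to 47.6 in MEFD5min and 62.1 to 70.8 in MEFD5plu. It rose by similar amounts, with 0.58 ± 0.11 (adjusted p = 2.08e-04) at day 3 and 0.59 ± 0.11 (adjusted p = 2.47e-04) at day 5. CPM of Col4a3 were 0.171, 0.053 and 0.0837 in MEFD0, 0.188, 0.14 and 0.135 in MEFD3min and 0.14, 0.0779 and 0.162 in MEFD5min. With treatment, Col4a3 had 0.512, 0.376 and 0.338 in MEFD3plu and 0.0298, 0.0967 and 0.121 in MEFD5plu. The MEFD3plu samples of Col4a3 were the highest, as the rule that kept it requires, with a log2 fold change of 1.38 ± 0.48 at day 3. At day 5 it had -0.65 ± 0.61 (adjusted p = 0.405). Endothelial markers (Pecam1, Cdh5, Kdr and Tek), of a cell type rich in basement membrane, were near 0, summing to 0.658 to 0.73 CPM in MEFD3min and 0.273 to 0.451 in MEFD3plu, and Cdh5 was at 0 in every MEFD3plu sample.

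Col15a1 (chr4:47208161-47313167), a multiplexin that links basement membranes to the fibrils below, had the largest rise of all collagen genes at both days. CPM of Col15a1 were 0.103, 0 and 0.0558 in MEFD0, 0.909, 1.91 and 1.38 in MEFD3min and 0.838, 0.701 and 0.243 in MEFD5min. With treatment, Col15a1 had 46.6, 51.7 and 47.2 in MEFD3plu and 34.1, 31.1 and 35.1 in MEFD5plu. The treated samples lay at 31.1 CPM or more and the untreated ones at 1.91 or less. Its log2 fold change was 5.10 ± 0.24 (adjusted p = 9.14e-12) at day 3 and 5.84 ± 0.27 (adjusted p = 1.70e-11) at day 5, after the treatment had ended, and the difference between the days was -0.74 ± 0.39 (adjusted p = 0.127). That difference passed the threshold without MEFD3min_1 (-0.97, adjusted p = 0.0462), without MEFD5min_1 (-1.15, adjusted p = 0.0437) and with no filter on low counts (0.0201), and was -1.15 to -0.27 over the samples left out. MEFD0 had at most 3 counts in every sample, so MEFD3min was at least 15.8-fold and MEFD3plu at least 546-fold higher. Col18a1, the precursor of the fragment endostatin, overlapped at day 3 (0.28 ± 0.15, adjusted p = 0.11), with 109 to 161 CPM in MEFD3min and 146 to 164 in MEFD3plu. Without MEFD3min_3 that value was 0.49 and passed the threshold (adjusted p = 0.00281). At day 5 Col18a1 rose, with 37.8 to 52.9 CPM in MEFD5min and 79.2 to 93.9 in MEFD5plu (0.94 ± 0.15, adjusted p = 6.40e-05).

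Type VI genes split at day 3, where 3 rose and 3 fell, and all 6 rose at day 5. Of all genes, 28.0% rose and 28.0% fell at day 3, and 26.3% rose at day 5. Col6a1 (chr10:76708792-76726168), Col6a2 (chr10:76595762-76623630) and Col6a3 (chr1:90765923-90843971) encode the chains of the common filament. CPM of Col6a1 were 259.8, 305 and 217 in MEFD0, 1063, 1509 and 1165 in MEFD3min and 423, 313 and 368 in MEFD5min. With treatment, Col6a1 had 1997, 2193 and 2165 in MEFD3plu and 1005, 877 and 940.1 in MEFD5plu. Col6a1 rose at day 3, with 0.77 ± 0.14 (adjusted p = 1.92e-04), and at day 5, with 1.35 ± 0.14 (adjusted p = 8.09e-07). CPM of Col6a2 were 195, 224 and 163 in MEFD0, 937, 1349 and 976 in MEFD3min and 325, 235 and 267 in MEFD5min. With treatment, Col6a2 had 1859.5, 2095 and 1897 in MEFD3plu and 999, 838 and 871 in MEFD5plu. Col6a2 rose as well, with 0.84 ± 0.15 (adjusted p = 1.27e-04) and 1.71 ± 0.15 (adjusted p = 1.07e-07). CPM of Col6a3 were 552, 593 and 419 in MEFD0, 893, 1612 and 895 in MEFD3min and 596, 496 and 443 in MEFD5min. With treatment, Col6a3 had 1743, 1825 and 1625 in MEFD3plu and 777, 677 and 775 in MEFD5plu. For all 3 genes the treated samples were the higher ones at both days without overlap. Col6a3 rose with 0.61 ± 0.19 (adjusted p = 0.0112) and 0.54 ± 0.19 (adjusted p = 0.0259).

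The treatment effect on these chains differed between the days for Col6a1, by -0.59 ± 0.20 (adjusted p = 0.0225), and Col6a2, by -0.87 ± 0.21 (adjusted p = 0.00266), with the larger effect at day 5. For Col6a3 the difference was 0.074 ± 0.27 (adjusted p = 0.846). The day 5 call of Col6a3 was lost without MEFD5min_3 (0.0716), MEFD5min_4 (0.131), MEFD5plu_1 (0.0681) or MEFD5plu_4 (0.072) and with scaling by total counts alone (0.37, adjusted p = 0.124), and its day 3 call was lost without MEFD3min_1 (0.0654). Without MEFD3min_3 its day 3 value was 0.95.

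Col6a4, Col6a5 and Col6a6, the neighbours on chromosome 9, encode longer chains related to that of Col6a3 and were far rarer. CPM of Col6a6 were 0.446, 0.292 and 0.53 in MEFD0, 9.24, 11.3 and 6.99 in MEFD3min and 5.45, 3.23 and 4.43 in MEFD5min. With treatment, Col6a6 had 1.19, 1.07 and 1.01 in MEFD3plu and 7.74, 6.99 and 7.78 in MEFD5plu. Treated samples were the lower ones at day 3 and the higher ones at day 5, without overlap. Col6a6 fell at day 3, with -3.07 ± 0.23 (adjusted p = 4.47e-09), and rose at day 5, with 0.77 ± 0.20 (adjusted p = 0.00385), a difference between days of -3.84 ± 0.30 (adjusted p = 2.96e-08). CPM of Col6a5 were 0.0343, 0.053 and 0 in MEFD0, 1.5, 2.92 and 1.55 in MEFD3min and 2.04, 1.4 and 1.19 in MEFD5min. With treatment, Col6a5 had 0.58, 0.689 and 0.648 in MEFD3plu and 3.9, 3.61 and 3.53 in MEFD5plu. The treated samples were again the lower ones at day 3 and the higher ones at day 5. Col6a5 fell at day 3, with -1.64 ± 0.32 (adjusted p = 3.50e-04), and rose at day 5, with 1.25 ± 0.29 (adjusted p = 0.00171), a difference between days of -2.89 ± 0.43 (adjusted p = 3.92e-05). Col6a4 lay at 0.773 to 1.63 CPM in MEFD3min, 0.307 to 0.564 in MEFD3plu, 0.251 to 0.622 in MEFD5min and 0.967 to 1.34 in MEFD5plu. It fell at day 3 (-1.41 ± 0.47, adjusted p = 0.018) and rose at day 5 (1.42 ± 0.48, adjusted p = 0.0205). Its day 3 call was lost without MEFD3min_1 (0.0851) or MEFD3plu_1 (0.0714) and its day 5 call without MEFD5min_1 (0.0917), MEFD5min_3 (0.0607) or MEFD5plu_1 (0.0694). Col6a5 shared 3.42% and Col6a6 3.7% of their 50-base words with other genes.

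Col7a1, which encodes the anchoring fibrils below the epidermis, was the collagen gene that fell in untreated culture from day 0 to day 3. It lay at 7.62 to 9.46 CPM in MEFD0, 1.45 to 1.91 in MEFD3min and 3.63 to 3.85 in MEFD5min. With treatment it lay at 6.88 to 9.37 in MEFD3plu, overlapping MEFD0, and 6.78 to 7.15 in MEFD5plu. Treated over untreated gave 2.31 ± 0.16 (adjusted p = 1.43e-09) at day 3 and 0.89 ± 0.15 (adjusted p = 8.09e-05) at day 5. Col8a1, a short-chain network gene of vessel walls and cornea, varied least of all 34 between conditions. CPM of Col8a1 were 213, 229 and 192 in MEFD0, 247, 271 and 294 in MEFD3min and 338, 276 and 319 in MEFD5min. With treatment, Col8a1 had 285, 281 and 299 in MEFD3plu and 245, 235 and 247 in MEFD5plu. Its day 3 groups overlapped (0.092 ± 0.091, adjusted p = 0.409), and it fell at day 5, with -0.36 ± 0.091 (adjusted p = 0.00357). CPM of Col10a1 were 0.0686, 0.292 and 0.223 in MEFD0, 0.188, 0.0842 and 0 in MEFD3min and 0.251, 0.156 and 0.216 in MEFD5min. With treatment, Col10a1 had 0.171, 0.313 and 0.338 in MEFD3plu and 0.983, 1.55 and 1.09 in MEFD5plu. Col10a1, known from hypertrophic cartilage, was highest in the 3 MEFD5plu samples and rose at day 5, with 2.49 ± 0.52 (adjusted p = 7.65e-04). At day 3 it had 1.55 ± 0.67 (adjusted p = 0.0605) with overlap, and 2.51 without MEFD3min_1 (adjusted p = 0.0192).

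FACIT genes moved in both directions, with 2 of 5 higher and 2 lower at day 3, and 2 lower at day 5. Of all genes, 28.0% rose and 28.0% fell at day 3, and 24.2% fell at day 5. Col12a1 (chr9:79598991-79718831), which binds type I fibrils in tissue under tension, had the largest day 3 rise after Col15a1. CPM of Col12a1 were 24.7, 24.9 and 15 in MEFD0, 65.4, 102 and 62.7 in MEFD3min and 171, 154 and 157 in MEFD5min. With treatment, Col12a1 had 586, 644 and 618 in MEFD3plu and 142, 98.4 and 128 in MEFD5plu. The MEFD3plu samples were well above all others, and at day 5 the treated samples were the lower ones. Col12a1 rose at day 3, with 3.00 ± 0.20 (adjusted p = 1.04e-09), and had -0.39 ± 0.19 (adjusted p = 0.0936) at day 5. The difference between days, 3.39 ± 0.27 (adjusted p = 3.31e-08), was the largest positive one of the 34 genes. Its day 5 value passed the threshold with the 6 day 5 samples fitted alone (adjusted p = 0.0122), without a filter (adjusted p = 7.72e-04) and scaled by total counts alone (adjusted p = 0.0258).

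Col14a1 is close to Col12a1 in its domains but moved the other way at day 3. CPM of Col14a1 were 0.412, 0.53 and 0.726 in MEFD0, 8.8, 10.1 and 9.11 in MEFD3min and 9.89, 6.39 and 8.57 in MEFD5min. With treatment, Col14a1 had 3.92, 5.14 and 6.4 in MEFD3plu and 5.51, 3.87 and 5.34 in MEFD5plu. Treated samples were the lower ones at both days without overlap, and Col14a1 fell, with -0.85 ± 0.20 (adjusted p = 0.00145) and -0.76 ± 0.20 (adjusted p = 0.00447). Col16a1 lay at 174 to 258 CPM in MEFD3min, 99.5 to 113 in MEFD3plu, 139 to 159.6 in MEFD5min and 105 to 126 in MEFD5plu. It fell at day 3 (-0.96 ± 0.14, adjusted p = 1.13e-05) and at day 5 (-0.38 ± 0.13, adjusted p = 0.0248). The day 5 call of Col16a1 was lost without MEFD5min_1 (0.0539), MEFD5min_3 (0.0854), MEFD5plu_3 (0.0982) or MEFD5plu_4 (0.0724). Col20a1 rose at day 3 (1.06 ± 0.25, adjusted p = 0.00155), with 3.3 to 7.22 CPM in MEFD3min and 8.74 to 14.8 in MEFD3plu, and had 0.084 ± 0.25 (adjusted p = 0.811) at day 5. Col9a3, a chain of cartilage, reached at most 1.49 CPM and had -0.53 ± 0.50 (adjusted p = 0.386) and 0.31 ± 0.45 (adjusted p = 0.60).

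The transmembrane genes were rare. Col17a1, of the junction between epithelium and basement membrane, lay at 2.32 to 4.41 CPM in MEFD3min, 4.6 to 5.58 in MEFD3plu, 0.977 to 1.46 in MEFD5min and 2.96 to 4.52 in MEFD5plu. It rose at day 3 (0.64 ± 0.24, adjusted p = 0.0315) and day 5 (1.62 ± 0.27, adjusted p = 8.68e-05). Without MEFD3min_3 the day 3 value was 0.98. The day 3 call was lost without MEFD3min_1 (0.142), MEFD3min_4 (0.0914) or MEFD3plu_3 (0.109) and with the 6 day 3 samples fitted alone (0.063). Epithelial markers (Epcam, Cdh1, Krt8 and Krt18) summed to 0.168 to 0.439 CPM in MEFD3min, 0 to 0.0564 in MEFD3plu, 0.0811 to 0.14 in MEFD5min and 0.419 to 1.19 in MEFD5plu, with 3 of the 4 at 3 counts or fewer in every sample. Krt8, the other one, was called lower at day 3 (adjusted p = 0.00386) and higher at day 5 (adjusted p = 0.00162), and its part in the Col17a1 result was not tested. Col23a1 had -0.052 ± 0.48 (adjusted p = 0.939) at day 3 and rose at day 5, with 1.19 ± 0.48 (adjusted p = 0.0475). That call was lost with DESeq2 (adjusted p = 0.11) and without MEFD5min_1 (0.132), MEFD5min_3 (0.143), MEFD5min_4 (0.0539), MEFD5plu_1 (0.0896) or MEFD5plu_4 (0.178). Col25a1 had 0.27 ± 0.49 (adjusted p = 0.66) and 0.80 ± 0.55 (adjusted p = 0.241), and with a sample left out 0.097 to 0.42 and 0.21 to 1.36.

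Col28a1, known from the sheaths of peripheral nerves, fell at day 3. CPM of Col28a1 were 0.0686, 0.106 and 0.167 in MEFD0, 4.26, 3.0 and 3.53 in MEFD3min and 2.04, 1.09 and 3.43 in MEFD5min. With treatment, Col28a1 had 0.307, 0.627 and 0.789 in MEFD3plu and 3.25, 2.45 and 3.23 in MEFD5plu. The MEFD3plu samples lay below those of MEFD3min, whereas the day 5 groups overlapped. Its log2 fold change was -2.62 ± 0.38 (adjusted p = 1.38e-05) at day 3 and 0.42 ± 0.33 (adjusted p = 0.307) at day 5, and the days differed by -3.04 ± 0.50 (adjusted p = 9.56e-05). Without MEFD5min_4 the day 5 value was 0.86 and passed the threshold (adjusted p = 0.0455).

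Most collagen genes rose in culture without treatment. From MEFD0 to MEFD3min, 29 of 34 rose and 1 fell, beside 31.4% and 28.6% of all genes, with a median log2 fold change of 2.0 against 0.041 over all genes. All 10 fibrillar and all 6 type VI genes rose. Col3a1 rose with 5.33 ± 0.18 (adjusted p = 3.69e-13), Col28a1 with 4.90 ± 0.48 (adjusted p = 1.15e-07), Col6a6 with 4.44 ± 0.26 (adjusted p = 1.83e-10) and Col14a1 with 4.05 ± 0.26 (adjusted p = 4.77e-10). For Col6a5 and Col23a1, with at most 3 counts in every MEFD0 sample, MEFD3min was at least 22.4-fold and 3.8-fold higher. Type I rose less, with 2.77 ± 0.28 (adjusted p = 2.04e-07) for Col1a1 and 2.12 ± 0.20 (adjusted p = 5.88e-08) for Col1a2, and Col7a1 fell, with -2.36 ± 0.16 (adjusted p = 9.06e-10). MEFD3plu, compared with the same MEFD0 samples, gave 29 genes higher and 0 lower, beside 33.9% and 29.7% of all genes. In that comparison Col3a1 rose with 4.98 ± 0.17 (adjusted p = 1.41e-13), Col12a1 with 4.84 ± 0.22 (adjusted p = 3.79e-12) and Col1a2 with 0.52 ± 0.19 (adjusted p = 0.0226). The call of Col1a2 was lost without MEFD0_4 (0.11) or MEFD3plu_3 (0.076) and with scaling by total counts alone (0.0652). The 5 genes not called in it were Col7a1 (-0.055), Col16a1 (-0.11), Col24a1 (-0.50), Col9a3 (-0.27) and Col10a1 (0.46).

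From day 3 to day 5 most of the called collagen genes fell in untreated cells. Between MEFD3min and MEFD5min 2 genes rose and 18 fell, beside 21.3% and 21.5% of all genes, with a median of -0.68 against -0.025. Those that rose were Col12a1 (1.07 ± 0.19, adjusted p = 2.15e-04) and Col7a1 (1.20 ± 0.16, adjusted p = 1.53e-05). The most negative were Col6a2 (-1.98 ± 0.15, adjusted p = 2.12e-08), Col3a1 (-1.95 ± 0.15, adjusted p = 2.12e-08) and Col6a1 (-1.76 ± 0.15, adjusted p = 4.39e-08). Col1a1 and Col1a2 fell, with -1.18 ± 0.27 (adjusted p = 0.00182) and -1.31 ± 0.19 (adjusted p = 3.10e-05), and without MEFD3min_3 the value of Col1a1 was -0.75.

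In the treated cells 7 rose and 16 fell from MEFD3plu to MEFD5plu, beside 33.8% and 29.2% of all genes, with a median of -0.30 against 0.063. The type IV genes Col4a1, Col4a2 and Col4a5 fell, with -2.08 ± 0.17 (adjusted p = 2.70e-08), -2.12 ± 0.20 (adjusted p = 1.16e-07) and -0.65 ± 0.11 (adjusted p = 5.98e-05), and Col12a1 fell with -2.33 ± 0.19 (adjusted p = 2.64e-08). The 3 type VI genes of chromosome 9 rose, with 2.78 ± 0.23 (adjusted p = 2.27e-08) for Col6a6, 2.52 ± 0.32 (adjusted p = 3.24e-06) for Col6a5 and 1.29 ± 0.48 (adjusted p = 0.0259) for Col6a4, whose call was lost without MEFD3plu_1 (0.0938), MEFD3plu_4 (0.0504) or MEFD5plu_1 (0.0842). Col28a1 rose too, with 2.34 ± 0.38 (adjusted p = 4.44e-05). Col1a1 and Col1a2 had -0.15 ± 0.26 (adjusted p = 0.639) and -0.22 ± 0.19 (adjusted p = 0.33). These comparisons share their samples with those of treatment.

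Within a sample the ratio of 2 chains does not depend on how libraries are scaled. Ratios are of counts per kb of exon, with SD over 3 samples and no test. The length of a gene joins the exons of all its annotated transcripts, 6563 bp for Col1a1 and 12426 bp for Col1a2. The level of a ratio depends on this choice and does not measure chains per molecule, whereas its relative change between conditions does not depend on it. Col3a1 over Col1a2 was 0.192 ± 0.0156 in MEFD0, 1.81 ± 0.25 in MEFD3min and 4.21 ± 0.262 in MEFD3plu. At day 5 it was 1.13 ± 0.175 in MEFD5min and 2.57 ± 0.215 in MEFD5plu, and no pair of conditions overlapped. Col1a1 over Col1a2, the chains of the same molecule, ranged from 0.562 ± 0.0437 in MEFD0 to 0.969 ± 0.0329 in MEFD5min and overlapped between MEFD3min and MEFD3plu. Col4a1 over Col4a2 was 1.25 ± 0.0621 in MEFD3min and 1.32 ± 0.0472 in MEFD5min. Those samples lay below all others, with 1.58 ± 0.0448 in MEFD0, 1.59 ± 0.037 in MEFD3plu and 1.65 ± 0.0905 in MEFD5plu.

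Across classes, Col4a1 over Col1a1, a basement membrane and a fibrillar chain, was 0.345 ± 0.0525 in MEFD3min and 4.21 ± 0.485 in MEFD3plu, and 0.50 ± 0.0716 and 1.12 ± 0.162 at day 5, without overlap at either day. Col12a1 over Col1a1 was 0.0118 ± 0.00161 in MEFD3min and 0.327 ± 0.0443 in MEFD3plu. Col6a3 over Col6a1 was 0.732 ± 0.0394 in MEFD0 and 0.512 ± 0.0693 in MEFD5min, above 0.327 ± 0.0574 in MEFD3min, 0.30 ± 0.0228 in MEFD3plu and 0.289 ± 0.011 in MEFD5plu. Col6a1 over Col6a2 was 2.54 ± 0.075 in MEFD5min and 1.98 ± 0.0705 in MEFD5plu. Col5a3 over Col5a1 was highest in MEFD5plu, at 0.159 ± 0.0222, against 0.0775 ± 0.00493 in MEFD5min.

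**Figure D5:**
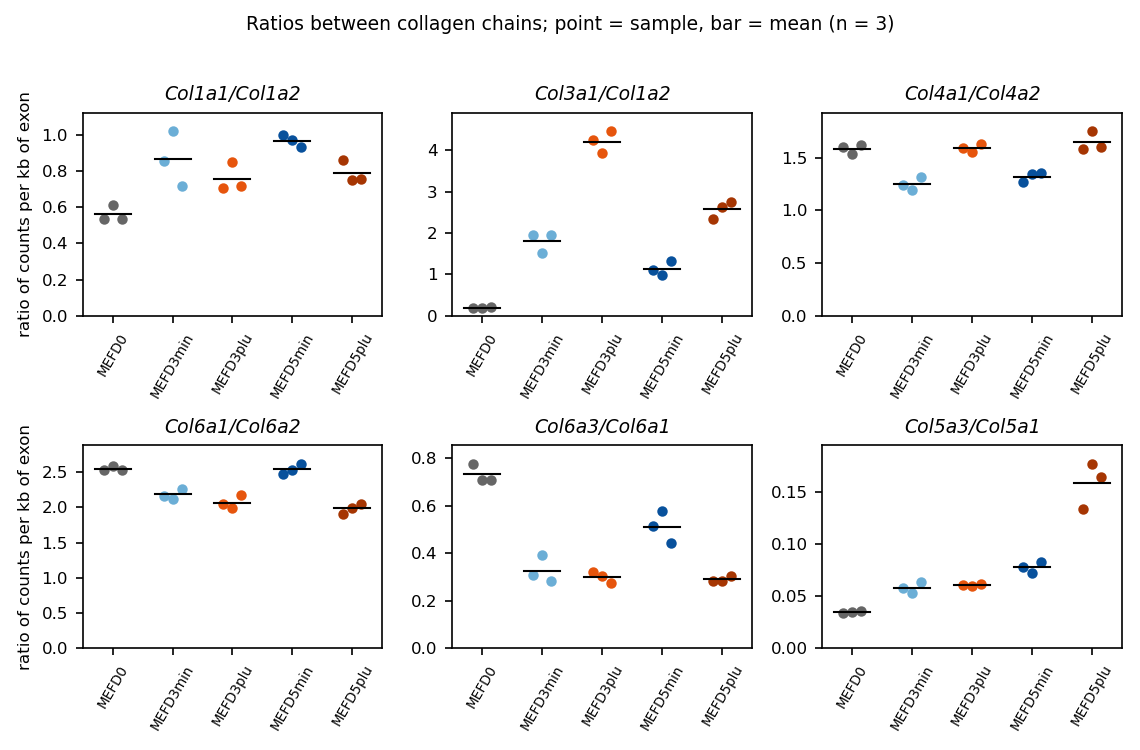
Ratio of counts per kb of exon between pairs of collagen chains in each sample (points, in the order of replicates 1, 3 and 4) with the mean of each condition (bars, n = 3); axes start at 0. Col3a1/Col1a2 is highest in MEFD3plu (mean 4.21) and lowest in MEFD0 (mean 0.192), and Col4a1/Col4a2 is lower in MEFD3min and MEFD5min than in the other 3 conditions.

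Of 35 genes that make, trim or cross-link collagen, 34 were tested. At day 3, 7 rose and 22 fell with treatment, beside the same 28.0% and 28.0% of all genes, with a median log2 fold change of -0.34. At day 5, 8 rose and 9 fell, near the 26.3% and 24.2% of all genes, with a median of -0.038. CPM of Serpinh1, the collagen-specific chaperone, were 1503, 1486 and 1736 in MEFD3min and 821, 853 and 905 in MEFD3plu. It fell at day 3 without overlap, with -0.87 ± 0.10 (adjusted p = 1.51e-06), and had 0.073 ± 0.10 (adjusted p = 0.584) at day 5. P4ha1 and P4hb, chains of the prolyl 4-hydroxylase that stabilizes the helix, fell at day 3, with -0.75 ± 0.084 (adjusted p = 7.71e-07) and -0.37 ± 0.081 (adjusted p = 9.47e-04). At day 5 P4ha1 had 0.0044 ± 0.083 (adjusted p = 0.972) and P4hb -0.49 ± 0.081 (adjusted p = 9.36e-05). Plod2, a lysyl hydroxylase that sets the type of cross-link, had CPM of 101, 105 and 123 in MEFD3min and 544, 523 and 637 in MEFD3plu. It rose at day 3, with 2.37 ± 0.11 (adjusted p = 9.09e-12), and at day 5 the value was 0.20 ± 0.10 (adjusted p = 0.123). P3h2, a prolyl 3-hydroxylase, rose at day 3, with 1.85 ± 0.25 (adjusted p = 5.74e-06). Lox, a lysyl oxidase, rose at day 3 (1.01 ± 0.12, adjusted p = 2.20e-06) and fell at day 5 (-0.75 ± 0.12, adjusted p = 7.42e-05), from 149, 199 and 156 CPM in MEFD5min to 107, 93 and 99 in MEFD5plu.

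The most negative day 3 values of this list were those of Colgalt2, a collagen galactosyltransferase (-3.09 ± 0.22, adjusted p = 1.21e-08), Tll1, a protease of the C-terminal propeptide (-2.61 ± 0.12, adjusted p = 6.04e-12), and Adamts14, a protease of the N-terminal propeptide (-1.81 ± 0.18, adjusted p = 1.29e-07). At day 5 the most positive were Adamts2, the main protease of the N-terminal propeptide (1.33 ± 0.12, adjusted p = 1.66e-07), the isomerase Fkbp14 (1.02 ± 0.14, adjusted p = 1.39e-05) and the hydroxylase chain P4ha3 (0.67 ± 0.094, adjusted p = 1.70e-05). The most negative were Pcolce2, an enhancer of C-terminal trimming (-1.72 ± 0.17, adjusted p = 3.71e-07), Tll1 (-1.27 ± 0.11, adjusted p = 7.05e-08) and P4ha2 (-0.80 ± 0.097, adjusted p = 3.66e-06). Macrophage markers (Ptprc, Adgre1, Cd68 and Csf1r) summed to 3.31 to 3.63 CPM in MEFD3min and 2.45 to 3.41 in MEFD3plu, and skeletal muscle markers (Myod1, Myog, Myh3 and Des) to 0.0336 to 0.47 and 0.783 to 1.16, nearly all of it Des.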

How the data were processed

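RNA-Seq counts of 15 samples were used, in 5 conditions of 3. The authors deposited, per sample, raw read counts per Ensembl gene, without normalization. The submitters' processing notes name TopHat2 2.1.0, HTSeq, DESeq2 and the builds GRCm38 and mm10. The annotation release, the strand setting and the handling of reads with several matches are not given in the sources used here, and the labels and the paper name different library kits, so reads of antisense genes may be included.

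The members and gene lists were chosen with earlier results of these data known. Gene symbols, exons and lengths came from GENCODE M21 (46005 of 46603 identifiers had a name). In R 4.3.3, edgeR 4.0.16 filtered the genes (filterByExpr, 15997 kept), and TMM factors were used. All comparisons came from glmQLFit and glmQLFTest on all 15 samples without covariates, with Benjamini-Hochberg adjustment over all genes tested and a threshold of 0.05. SEs come from that fit. The floor, at most 3 counts in every library of a condition, covers counting error only. Replicates differed by more than sampling noise. Deviations of same-numbered samples from their condition means correlated in all 3 pairs of MEFD3min and MEFD3plu (r = 0.143, 0.228 and 0.36) and in no other 2 conditions did all 3 pairs exceed 0.1, so the numbers were taken to pair the samples at day 3 only. The labels name no shared culture or day, and the pairing comes from this correlation, which does not show that other conditions are unpaired. The main fit did not use this pairing, and the replicate block spanned all 5 conditions, so no fit blocked the day 3 samples alone. The fit was also run on simulated counts, whose outcome is not reported here and supports nothing above.

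Values in every sample were given for the 12 collagen genes with the highest mean CPM and the 3 most positive and 3 most negative log2 fold changes at day 3, at day 5 and in the interaction (21 genes), and of the processing list Serpinh1, P4ha1, P4hb, Plod2, Lox and the 3 extremes at each end per day were named. Other genes were named by class, and values in every sample outside this rule were left out. Lists held processing genes, collagen-binding proteoglycans, collagen receptors and markers of 10 cell types, of which 1 list is not reported here. Alternatives were DESeq2 1.42.0, the compared samples only, DESeq2's size factors, total counts alone, TMM without the collagen genes, no filter, at least 10 counts in every sample, an adjusted p under 0.01, a replicate block, and each sample left out.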

Additional observations from a re-analysis of the deposited data

Results flagged for a closer look

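The test of the treatment effect at day 3 minus that at day 5 passed for 23 of the 34 collagen genes. Of all genes, 22.6% passed with a more positive effect at day 3 and 25.8% with a more positive effect at day 5. Each of the 23 is listed here because the effect of the same contrast differed between 2 time points. In the direction of a more positive effect at day 3 stood, with the difference on the log2 scale, Col12a1 (3.39), Col4a3 (2.02), Col11a1 (1.64), Col4a1 (1.47), Col4a2 (1.42), Col7a1 (1.42), Col20a1 (0.98) and Col8a1 (0.45). In the direction of a more positive effect at day 5 stood Col6a6 (-3.84), Col28a1 (-3.04), Col6a5 (-2.89), Col6a4 (-2.83), Col24a1 (-2.60), Col1a2 (-1.09), Col1a1 (-1.03), Col3a1 (-1.02), Col17a1 (-0.97), Col6a2 (-0.87), Col5a2 (-0.71), Col5a3 (-0.70), Col18a1 (-0.66), Col6a1 (-0.59) and Col16a1 (-0.57). Col4a3 was kept only through its 3 MEFD3plu samples, so its more positive day 3 effect follows from that choice. Col6a4, Col6a5 and Col6a6 were called lower at day 3 and higher at day 5. Scaled by total counts alone, Col16a1, Col17a1, Col18a1, Col1a1, Col5a3 and Col6a1 missed the threshold (adjusted p 0.0776 to 0.122), and with DESeq2 Col1a1 (0.0876) and Col4a3 (0.107) did.

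The difference lost its call when 1 library was left out, named in brackets, for Col1a1 (MEFD3min_3, MEFD3plu_1, MEFD3plu_4, MEFD5min_3, MEFD5min_4, MEFD5plu_1; adjusted p 0.0603 to 0.10), Col4a3 (MEFD3min_1, MEFD3min_3, MEFD3min_4, MEFD3plu_1, MEFD3plu_3, MEFD5min_1, MEFD5min_4, MEFD5plu_1, MEFD5plu_3; adjusted p 0.0516 to 0.109), Col17a1 (MEFD3min_3, MEFD3plu_1, MEFD3plu_4, MEFD5min_1, MEFD5plu_1, MEFD5plu_4; adjusted p 0.0603 to 0.112), Col6a1 (MEFD3min_3, MEFD3plu_1, MEFD5min_3, MEFD5min_4, MEFD5plu_1; adjusted p 0.052 to 0.0638), Col20a1 (MEFD3min_4, MEFD3plu_3, MEFD5min_3, MEFD5plu_3; adjusted p 0.0578 to 0.096), Col24a1 (MEFD3min_1, MEFD3plu_4, MEFD5min_1, MEFD5plu_1; adjusted p 0.0562 to 0.0738), Col16a1 (MEFD5min_4, MEFD5plu_1; adjusted p 0.0537 to 0.061) and Col5a3 (MEFD5min_3, MEFD5min_4; adjusted p 0.0504 to 0.0531). Without MEFD3min_3 the difference was -0.60 for Col1a1, -0.64 for Col17a1, -0.45 for Col5a3 and -0.37 for Col16a1.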

How the results depend on the processing

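Counts of called collagen genes stayed within 1.5 times the reported ones under the alternatives, apart from the interaction at an adjusted p under 0.01 (14 called against 23) and MEFD5plu/MEFD3plu among the 24 collagen genes that reached 10 counts in all samples (15 called against 23). Of all 15997 genes, 5799 passed in the interaction at that threshold, against 3622 higher and 4132 lower at 0.05. Among the 12251 genes that reached 10 counts in all samples, 8475 were called in MEFD5plu/MEFD3plu. Within lists, fibrillar genes at day 5 went from 7 called to 4 at an adjusted p under 0.01, where 6129 of all 15997 genes passed. Small counts of other classes, of the proteoglycans and of the receptors moved under some settings as well. With each sample left out in turn, 21 to 25 collagen genes were called at day 3, 17 to 21 at day 5, 17 to 22 in the interaction, 28 to 30 in MEFD3min/MEFD0, 18 to 21 in MEFD5min/MEFD3min, 21 to 23 in MEFD5plu/MEFD3plu and 26 to 29 in MEFD3plu/MEFD0. The processing list had 24 to 28 at day 3 and 14 to 16 at day 5. Calls over all genes were not counted for the fits with a sample left out. Scaling by total counts alone shifted the median of all genes by -0.16 at day 5 and 0.18 in the interaction. The values that changed sign belonged to genes not called. Under that scaling they were, at day 5, Col20a1 (-0.081), Col24a1 (-0.030), Col27a1 (-0.076), Col5a1 (-0.021), Col4a2 (-0.12), P4ha1 (-0.16) and Serpinh1 (-0.087), and in the interaction Col14a1 (0.077), Col27a1 (0.013) and Col4a5 (0.16). With DESeq2 they were Col4a2 (-0.0016) and P4ha1 (-0.040) at day 5 and Col4a5 in the interaction (0.021), and with its size factors -0.0019, -0.040 and 0.020. Col4a5 gave 0.023 with the compared samples alone. With a sample left out, values that changed sign spanned Col23a1 -0.39 to 0.19 and Col27a1 -0.25 to 0.098 at day 3. At day 5 they spanned Col20a1 -0.064 to 0.28, Col24a1 -0.094 to 0.38, Col27a1 -0.044 to 0.21, Col4a2 -0.075 to 0.16, Col5a1 -0.0014 to 0.27, Col9a3 -0.0087 to 0.51, Lum -0.35 to 0.11, P4ha1 -0.067 to 0.044 and Serpinh1 -0.035 to 0.12. In the interaction they spanned Col10a1 -1.46 to 0.024, Col14a1 -0.28 to 0.067, Col25a1 -1.09 to 0.061, Col27a1 -0.33 to 0.017, Col4a5 -0.092 to 0.082 and Col6a3 -0.070 to 0.42. Over time they spanned Col24a1 -1.13 to 0.56, Col7a1 -0.17 to 0.054 and Col9a3 -0.58 to 0.66 in MEFD3plu/MEFD0 and Col1a1 -0.39 to 0.014 in MEFD5plu/MEFD3plu. By the correlation of deviations from the condition means, the shared replicate numbers paired MEFD3min with MEFD3plu but no other 2 conditions, with 10 of 30 pairs above 0.1, while 11 of 15 samples lay closest to their own number, a hint from the data. The replicate block gave 25 called collagen genes at day 3, 23 at day 5, 23 in the interaction, 30 in MEFD3min/MEFD0, 21 in MEFD5min/MEFD3min, 23 in MEFD5plu/MEFD3plu and 29 in MEFD3plu/MEFD0, with 29 and 19 processing genes at days 3 and 5. The block called 9452 of all 15997 genes at day 3, 8607 at day 5 and 8305 in the interaction. It called 10010 in MEFD3min/MEFD0, 7420 in MEFD5min/MEFD3min, 10415 in MEFD5plu/MEFD3plu and 10553 in MEFD3plu/MEFD0. It added Col3a1 at day 3 (0.0434), Col4a1 at day 5 (0.0388) and Col11a2 in the interaction (0.0198) and removed Col23a1 at day 5 (0.0563) and Col4a3 in the interaction (0.0609), adjusted p in brackets. Depth limits Col4a3, Col10a1, Col23a1, Col24a1 and Col25a1, with at most 48 counts in any sample. Col9a3 and Col6a4 were close to that, with at most 50 and 52 counts. The cause of these changes was not tested.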

Other observations

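Small leucine-rich proteoglycans, which coat collagen fibrils and regulate their spacing, moved unevenly. Of 7 tested of 8, 2 rose and 5 fell at day 3, beside 28.0% and 28.0% of all genes, and 3 rose and 0 fell at day 5 with 4 not called by edgeR, beside 26.3% and 24.2%. The genes named here were chosen after their values were seen. Dcn, decorin, lay at 2503 to 3241 CPM in MEFD3min and 388 to 536 in MEFD3plu. It fell at day 3 (-2.65 ± 0.19, adjusted p = 2.79e-09) and had -0.20 ± 0.18 (adjusted p = 0.39) at day 5, where it passed the threshold without MEFD5min_3 (-0.41, adjusted p = 0.0368). Lum, lumican, fell at day 3 (-4.11 ± 0.29, adjusted p = 1.98e-09) and had -0.071 ± 0.25 (adjusted p = 0.838) at day 5. Aspn, asporin, lay at 23.5 to 36.8 CPM in MEFD3min and 479.8 to 619.5 in MEFD3plu. It rose at day 3 (4.11 ± 0.21, adjusted p = 3.73e-11) and at day 5 (2.94 ± 0.20, adjusted p = 3.75e-09). Prelp had 0 counts in every MEFD5min sample and 6.7 to 9.14 CPM in MEFD5plu.

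Of the 7 collagen receptor genes, 0 rose and 5 fell at day 3, beside 28.0% and 28.0% of all genes, and 1 fell at day 5, beside 24.2% (2 without MEFD5min_3 or without MEFD5plu_1). Itga2, an integrin chain that binds type I collagen, lay at 19.3 to 20.5 CPM in MEFD3min, 0.846 to 1.02 in MEFD3plu, 81 to 81.7 in MEFD5min and 29.5 to 35.6 in MEFD5plu. It fell at day 3 (-4.42 ± 0.12, adjusted p = 2.16e-14) and at day 5 (-1.31 ± 0.087, adjusted p = 2.67e-09). As above, the genes named were chosen after their values were seen. Ddr2, a receptor kinase for fibrillar collagen, fell at day 3 (-0.65 ± 0.10, adjusted p = 4.47e-05), and Ddr1 had 0.28 ± 0.13 (adjusted p = 0.0682), which passed the threshold without MEFD3min_3 (0.00186) and with the replicate number as a block (0.0221).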
